A study of Oryza sativa with 2 samples.

Results

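The transcripts of 10 rice loci that encode enzymes of chlorophyll synthesis were followed in leaves of the white leaf and panicle mutant *wlp2s* and of the wild-type. The loci were listed by the step they encode, from glutamyl-tRNA reductase to chlorophyllide a oxygenase, with no rule on their levels. Earlier results of these data were known when the list was made, and it does not hold every step in between. Each of the 10 has rows among the 26715 loci of the expression table. The wild-type is *japonica* rice cv. Zhonghua11. The mutant carries an ethyl methanesulfonate-induced allele of *WLP2* in the same cultivar, and *WLP2* encodes a protein associated with the plastid-encoded RNA polymerase. Its sample label names the gene but no allele, and the expression table heads its columns wlp2s. Seedlings of both genotypes were raised on 1/2 MS medium and stood at a constant 32 °C under 12 h of light (300 μmol m–2 s–1) and 12 h of dark. The age at sampling and the number of plants in a library are not given in the labels. Each genotype is represented by 1 RNA-seq library, so no difference below has a replicate check and none was tested.

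Chlorophyll is made in plastids by nuclear-encoded enzymes. Glutamyl-tRNA reductase opens the route that all tetrapyrroles, heme included, share. Magnesium chelatase commits protoporphyrin IX to chlorophyll by inserting magnesium, and ferrochelatase competes for the same substrate with iron. The cyclase then closes the fifth ring, divinyl reductase reduces a vinyl side chain, and the light-dependent protochlorophyllide oxidoreductases (POR) make chlorophyllide. Chlorophyll synthase adds the phytol tail, and chlorophyllide a oxygenase makes the precursor of chlorophyll b.

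The wild-type library held 9080323 counts and the *wlp2s* library 9327778. Leaf identity was checked with 6 loci, 3 of the rubisco small subunit and 3 of light-harvesting proteins. Rubisco small subunit loci stood between 636 and 3640 RPKM in wild-type and between 808 and 3464 RPKM in *wlp2s*, and their sums were 7420 and 7470 RPKM. The light-harvesting loci stood between 867 and 988 RPKM in wild-type and between 448 and 941 RPKM in *wlp2s*. All 3 of them were lower in *wlp2s*, with ratios of 0.507 (counting interval 0.490 to 0.525) at LOC_Os01g41710, 0.742 (0.722 to 0.763) at LOC_Os09g17740 and 0.953 (0.932 to 0.975) at LOC_Os03g39610. The part of this difference in the results below was not tested. Of 3 root markers, LOC_Os02g51110 was at 6.83 and 6.86 RPKM, and the others have no row in the expression table. *WLP2* itself (LOC_Os01g63220) had 126 reads in wild-type and 178 reads in *wlp2s*, a ratio of 1.38 (counting interval 1.09 to 1.74). The library labelled *wlp2s* thus held more *WLP2* reads for its depth, not fewer. The mutation is a single-base change that the table cannot show, so the genotype labels were not checked by these data, and each direction below rests on them.

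At 8 of the 10 chlorophyll synthesis loci the log2 difference between *wlp2s* and wild-type was under 0.5 in size. The same held at 15878 of all 18639 loci that reached 1 RPKM in either library. The steps that stood lowest in *wlp2s* relative to wild-type were POR, at both of its loci, and glutamyl-tRNA reductase. The magnesium chelatase subunits, chlorophyll synthase and chlorophyllide a oxygenase were within 10% of equal levels. Divinyl reductase was the only locus of the 10 with a counting interval above equal levels. Levels are given as RPKM, in which reads are divided by transcript length and by depth, summed over the transcript models of a locus. Differences are those of log2(RPKM + 1), *wlp2s* minus wild-type, a scale that understates changes of weakly expressed genes. Folds are ratios of reads scaled to library depth. Their exact 95% binomial (Clopper-Pearson) intervals cover counting error only and say nothing of the spread between plants.

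**Figure D1:**
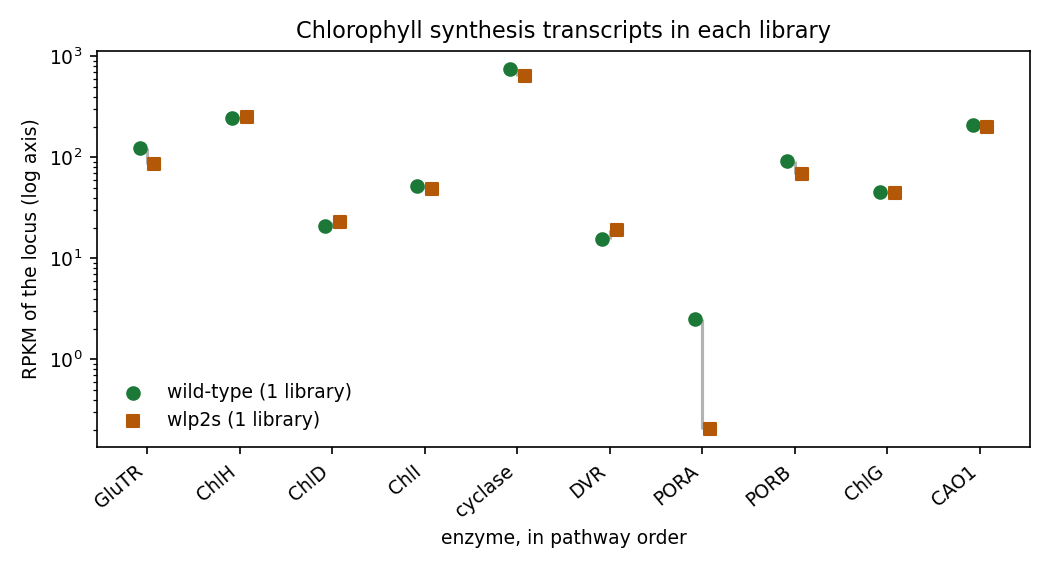
RPKM (log axis) of the 10 chlorophyll synthesis loci in pathway order, with 1 point per library (GluTR, glutamyl-tRNA reductase; ChlH, ChlD and ChlI, magnesium chelatase subunits; DVR, divinyl reductase; ChlG, chlorophyll synthase) and a grey line joining wild-type (circle) and *wlp2s* (square). The points lie close together at most steps, and PORA, at 2.52 (wild-type) and 0.204 (*wlp2s*) RPKM, is the weakest locus and the one with the widest gap.

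The first dedicated step was carried by 1 transcript model with undivided reads. LOC_Os10g35840, annotated as a glutamyl-tRNA reductase family protein, had 2623 reads (124.6 RPKM) in wild-type and 1858 reads (85.9 RPKM) in *wlp2s*. It was 1.45-fold lower in *wlp2s* (interval 1.37 to 1.54), a difference of -0.53. The fold is larger than counting error at this depth. A filter kept the 18639 loci that reached 1 RPKM in either library, and the 10 chlorophyll synthesis loci all passed it. Of the loci kept, 5.27% had a lower difference. The wild-type level of glutamyl-tRNA reductase was above that of 96.8% of them.

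Magnesium chelatase is built of 3 subunits, of which H binds the porphyrin and the I and D subunits form the ATP-dependent ring. LOC_Os03g20700, annotated as the H subunit, was at 243 (wild-type) and 249 (*wlp2s*) RPKM. The ratio was 1.02 (0.997 to 1.05), and the interval includes equal levels. LOC_Os03g59640, listed as the D subunit and annotated as ALBINA 1, was at 21.0 and 23.1 RPKM, a ratio of 1.10 (0.971 to 1.24). LOC_Os03g36540, annotated as magnesium chelatase i2, was at 52.5 and 48.7 RPKM, a ratio of 0.927 (0.850 to 1.01). All 3 intervals include equal levels, and that of subunit H reaches less than 5% from them in either direction. Together the 3 loci had 13237 reads in wild-type and 13844 reads in *wlp2s*, a ratio of 1.02 (0.994 to 1.04). Transcripts of the subunits were far from equal in amount. In RPKM, subunit H stood 11.6-fold above subunit D in wild-type and 10.8-fold above it in *wlp2s*. Subunit I stood 2.50-fold and 2.11-fold above subunit D.

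The cyclase was the most abundant of the 10 in both libraries. LOC_Os01g17170, annotated as a dicarboxylate diiron protein (Crd1), was at 754 (wild-type) and 645 (*wlp2s*) RPKM, from 14629 and 12859 reads. It was 1.17-fold lower (1.14 to 1.20). The difference is small and its interval narrow at this depth. The locus held 37.4% of the reads of the 10 loci in wild-type and 35.1% in *wlp2s*. The level stood above that of 99.6% of the loci past the filter.

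Divinyl reductase went the other way. LOC_Os03g22780, which the table annotates only as a Rossmann-fold protein that binds NAD(P), had 225 reads in wild-type and 283 reads in *wlp2s*. Its level was 15.4 and 18.9 RPKM, a ratio of 1.22 (1.02 to 1.47). The lower bound lies close to equal levels, so at this depth the excess is barely larger than counting error.

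The POR step combined the weakest locus of the 10 with a strong one. POR is the enzyme that needs light, and in Arabidopsis the A form is known from dark-grown and very young seedlings while the B form persists in green tissue. LOC_Os04g58200, annotated as protochlorophyllide oxidoreductase A (PORA), had 36 reads in wild-type and 3 reads in *wlp2s*. Its level was 2.52 and 0.204 RPKM. The ratio was 12.3-fold lower in *wlp2s* (3.89 to 62.6), a difference of -1.55, and 0.263% of the loci past the filter had a lower difference. The interval is wide because it rests on 3 reads. With a pseudocount of 5 the difference was no longer past 1, and a filter at 5 RPKM leaves the locus out. The second locus, LOC_Os10g35370, is listed as PORB although the table annotates it with the wording of PORA. It had 1843.5 and 1412 reads, at 91.3 (wild-type) and 68.2 (*wlp2s*) RPKM, and was 1.34-fold lower (1.25 to 1.44). Its difference was -0.42. The fold of PORA and the fold of PORB have intervals that do not overlap, and both lie below equal levels.

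PORA contributed little to POR transcripts in either library. It held 1.92% of the reads of both POR loci in wild-type (1.35% to 2.64%) and 0.212% in *wlp2s* (0.0437% to 0.618%). In RPKM, PORB stood 36.3-fold above PORA in wild-type and 334-fold above it in *wlp2s*. Reads of both loci together were 1.36-fold lower in *wlp2s* (1.27 to 1.46), from 1879.5 and 1415 reads. The sum therefore follows PORB.

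The last steps were near equal in both libraries. LOC_Os05g28200, listed as chlorophyll synthase and annotated as a UbiA prenyltransferase family protein, had 712 and 716 reads, at 45.8 (wild-type) and 44.8 (*wlp2s*) RPKM. The ratio was 0.979 (0.881 to 1.09). LOC_Os10g41780, listed as *CAO1* and carrying the GO term for chlorophyllide a oxygenase activity, was at 210.1 (wild-type) and 200.3 (*wlp2s*) RPKM. It was 1.05-fold lower (1.01 to 1.09), and its interval excludes equal levels by a small margin.

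**Figure D2:**
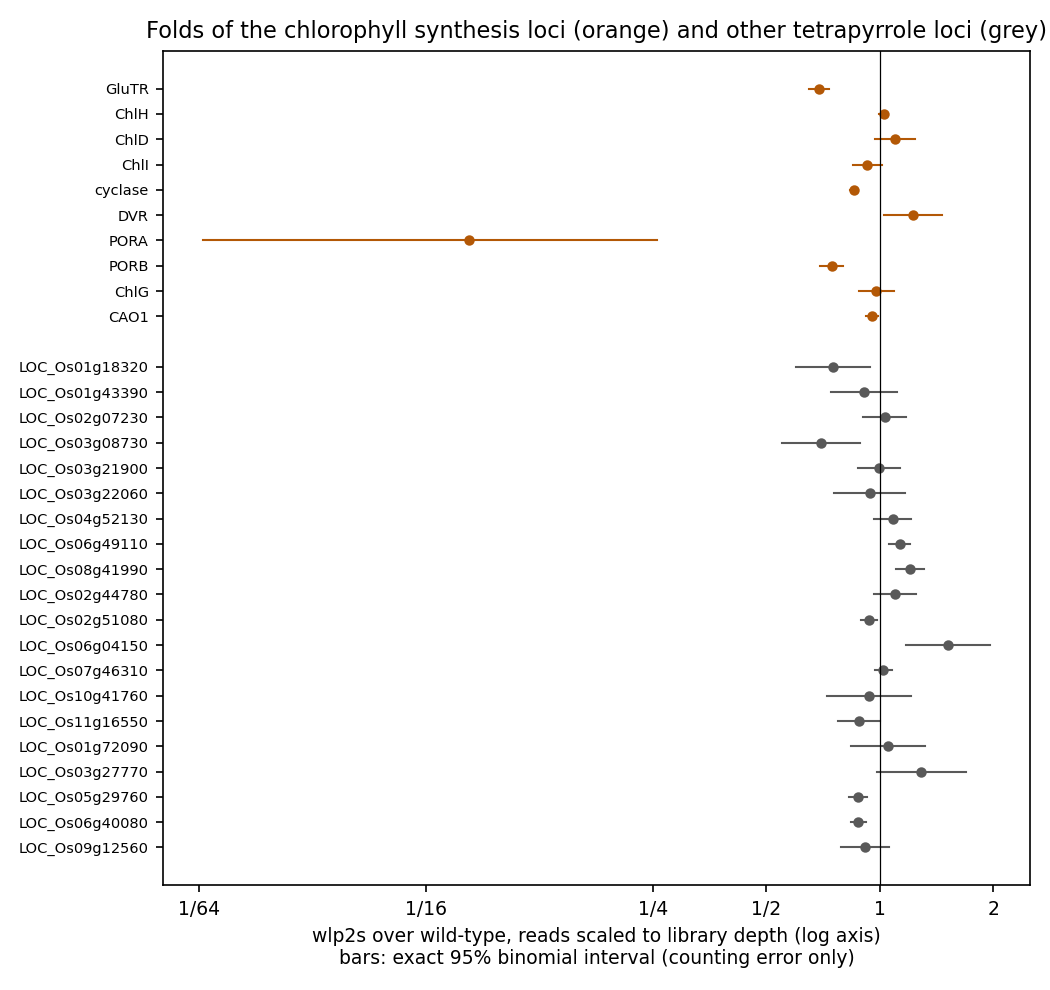
Ratio of *wlp2s* to wild-type (log axis, reads scaled to library depth) for the 10 chlorophyll synthesis loci in pathway order (orange) and 20 other tetrapyrrole loci (grey), with exact 95% binomial intervals as bars. PORA lies far to the left with a wide interval (3.89-fold to 62.6-fold lower), glutamyl-tRNA reductase and PORB lie left of equal levels with narrow ones, and most other loci lie near the line at 1.

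With a size rule of 1 on the log2 difference, 1 of the 10 loci (PORA) was lower and 0 were higher. Among all loci past the filter the share past the rule was 2.8%, with 1.01% lower and 1.79% higher. PORA is read weakly, and among loci with 20 to 80 reads in both libraries together 1.77% were lower by this rule. With a difference of at least 0.5, PORA and glutamyl-tRNA reductase were lower and none was higher, against 14.8% of all loci in either direction and 6.1% lower. Of the 6 chlorophyll synthesis loci that had 50 RPKM or more in wild-type, 1 was lower by at least 0.5, and the share among the 1969 loci at that level was 4.98%. The counting interval excluded equal levels at 6 of the 10, with 5 lower (glutamyl-tRNA reductase, cyclase, PORA, PORB, *CAO1*) and 1 higher (divinyl reductase). That share was 31.5% over all loci and 39.5% over loci with at least 200 reads, a class that holds 9 of the 10 with 5 such intervals. The rule is met by many well-read loci, since it ignores the spread between plants. The median difference of the 10 was -0.09, and that of all loci past the filter was 0.00181.

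**Figure D3:**
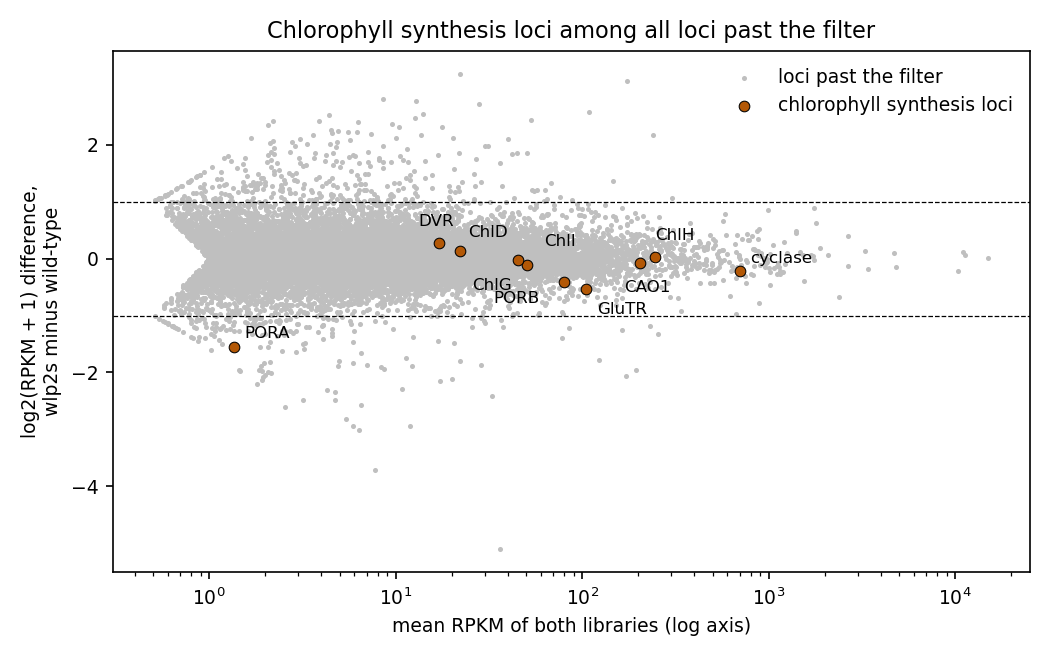
Difference of log2(RPKM + 1), *wlp2s* minus wild-type, against mean RPKM of both libraries (log axis) for the 18639 loci past the filter (grey) and the 10 chlorophyll synthesis loci (orange), with dashed lines at differences of 1 and -1. PORA (-1.55) is the only one of the 10 outside the dashed lines, and the other 9 lie between them.

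The order of the 10 by RPKM was the same in both libraries. It ran from the cyclase through subunit H, *CAO1*, glutamyl-tRNA reductase, PORB, subunit I, chlorophyll synthase, subunit D and divinyl reductase to PORA. Some neighbours in this order were close. Subunit H and *CAO1* had wild-type levels of 243 and 210.1 RPKM, and subunit I and chlorophyll synthase had 52.5 and 45.8 RPKM. Without replicates it cannot be said whether such neighbours differ. Subunit H stood 1.95-fold above glutamyl-tRNA reductase in RPKM in wild-type and 2.90-fold in *wlp2s*, and the cyclase stood 6.05-fold and 7.51-fold above it. Of the 10, 4 lie on chromosome 3 and 3 on chromosome 10 by their locus IDs. All 10 carry a GO term for plastid, 3 carry thylakoid, and 8 are placed on the porphyrin and chlorophyll map of KEGG.

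Reads of all 10 loci together were 39116 in wild-type and 36666 in *wlp2s*, or 0.431% and 0.393% of the library. The sum was 1.10-fold lower in *wlp2s* (1.08 to 1.11). Without the cyclase, which has the most reads, it was 1.06-fold lower (1.04 to 1.08). Without glutamyl-tRNA reductase it was 1.08-fold lower (1.06 to 1.09). In bulk leaf RNA, fewer cells with developed plastids and less of these transcripts per cell cannot be told apart.

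Models of the same locus had similar ratios. The 10 loci have 20 models, and 7 of the loci have more than 1. The share of a locus's reads given to a model differed by at most 1.32 percentage points between libraries, at subunit I, where the first model held 57.0% in wild-type and 55.7% in *wlp2s*. The first cyclase model (2011 bases) had a ratio of 0.861 (0.834 to 0.888) and the second (2335 bases) 0.849 (0.818 to 0.880). The PORB models (1765 and 2951 bases) had ratios of 0.751 and 0.741. PORA has 3 models, each with 12 reads in wild-type and 1 read in *wlp2s*. Reads that fit several models appear to have been divided evenly. Of 30 loci in wild-type with 3 equal models and a whole-number sum, 33.3% held a whole number at each model, and in *wlp2s* 28.0% of 25 did. The PORA values thus stand for 36 and 3 reads, and its models are not separate measurements. At the other loci too, reads divided between models make the ratios of those models alike. The intervals of single models count divided reads as if they were separate.

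**Figure D4:**
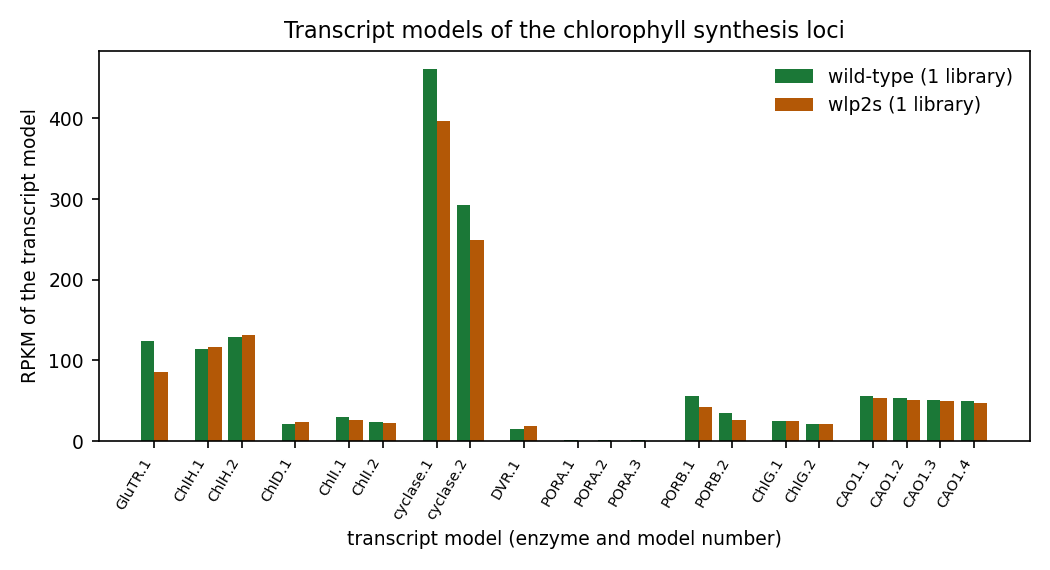
RPKM of each of the 20 transcript models of the chlorophyll synthesis loci (bars from 0; green for wild-type, orange for *wlp2s*, 1 library each), grouped by locus in pathway order. Models of 1 locus differ between libraries in the same direction at the cyclase (461 and 397 RPKM for the first model, 293 and 249 RPKM for the second) and at PORB, and the bars of PORA are too low to be seen at this scale.

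Some reads could also be divided between loci. Counts were whole numbers at 7 of the 10 loci (tolerance 0.001) and fractions at subunit H, PORB and *CAO1*. A second locus, LOC_Os07g46310, bears the annotation of subunit H and had 127 RPKM in wild-type and 130.0 RPKM in *wlp2s*. Added to LOC_Os03g20700, the ratio was again 1.02 (1.00 to 1.05). LOC_Os10g41760 shares the chlorophyllide a oxygenase term with *CAO1* and was at 6.95 and 6.51 RPKM. Both loci together were 1.05-fold lower (1.01 to 1.09). To 2 decimals, the folds of subunit H and *CAO1* were the same with and without the related locus. Neither fold could move much. LOC_Os10g41760 had 127.6 (wild-type) and 122.7 (*wlp2s*) reads beside 5810.5 and 5690.5 at *CAO1*, and LOC_Os07g46310 alone had a ratio of 1.02. The sums therefore cannot show whether reads were divided between loci.

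The rest of the tetrapyrrole pathway was described by 20 further loci, found by annotation wording or locus ID. None reached a difference of 1 (0 of 20), and with the rule of 0.5, 1 was higher and 0 were lower. Their median difference was -0.05, but 0.04 over those with whole-number counts. The counting interval was above equal levels at 3, below at 5 and included them at 12. Over all loci past the filter, 2.8% reached 1, 14.8% reached 0.5 and 31.5% had an interval that excluded equal levels. Among loci with at least 200 reads the last share was 39.5%. Magnesium-protoporphyrin IX methyltransferase (LOC_Os06g04150), which works between the chelatase and the cyclase, had 102 reads in wild-type and 159 reads in *wlp2s*. It was 1.52-fold higher (1.18 to 1.97), the largest ratio among these 20 loci and the 10 above.

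In the trunk from glutamate to protoporphyrin IX, the enzymes just after glutamyl-tRNA reductase did not share its lower level. Glutamate-1-semialdehyde aminomutase (LOC_Os08g41990), which makes 5-aminolevulinate, was at 61.2 (wild-type) and 73.7 (*wlp2s*) RPKM, 1.20-fold higher (1.11 to 1.31). LOC_Os06g49110, with the GO term for porphobilinogen synthase, was at 81.3 and 91.8 RPKM, 1.13-fold higher (1.06 to 1.21). Further down, hydroxymethylbilane synthase (LOC_Os02g07230) was at 32.0 and 32.9 RPKM. Uroporphyrinogen-III synthase (LOC_Os03g08730) had 173 and 124 reads and was 1.43-fold lower (1.13 to 1.82). The 3 uroporphyrinogen decarboxylase loci (LOC_Os01g43390, LOC_Os03g21900 and LOC_Os03g22060) had ratios from 0.907 to 0.994, and each interval included equal levels. Coproporphyrinogen III oxidase (LOC_Os04g52130) was at 39.4 and 42.6 RPKM, a ratio of 1.08 (0.967 to 1.21). LOC_Os01g18320, a flavin-containing amine oxidoreductase on the porphyrin map of KEGG, was 1.33-fold lower (1.06 to 1.67) with divided reads. The 9 trunk loci together were 1.07-fold higher (1.03 to 1.11). That sum is weighted to the loci with the most reads, LOC_Os06g49110 and LOC_Os08g41990, which were both higher. No sum was made without them. The median difference of the 9 was -0.00874, with 4 loci above 0 and 5 below.

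Apart from the methyltransferase, the other loci of the chlorophyll branch had ratios from 0.881 to 1.10. LOC_Os02g51080, listed as geranylgeranyl reductase and annotated as an oxidoreductase, is placed by KEGG on the porphyrin and the terpenoid backbone maps. It was at 202 (wild-type) and 189 (*wlp2s*) RPKM, 1.07-fold lower (1.02 to 1.12). LOC_Os02g44780 is annotated as geranylgeranyl reductase, but KEGG places it on the terpenoid backbone map alone. Its level was 28.8 and 31.7 RPKM. The tetrapyrrole-binding protein LOC_Os11g16550 was at 34.5 and 30.4 RPKM. The intervals of LOC_Os02g44780 and LOC_Os11g16550 included equal levels.

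In the heme branch, the abundant loci were slightly lower. Ferrochelatase 2 (LOC_Os05g29760), which inserts iron into protoporphyrin IX, was at 129.6 (wild-type) and 113 (*wlp2s*) RPKM, 1.14-fold lower (1.08 to 1.20). A heme oxygenase (LOC_Os06g40080), which opens the heme ring on the way to phytochromobilin, was at 274 and 240.2 RPKM, also 1.14-fold lower (1.09 to 1.20). Ferrochelatase 1 (LOC_Os09g12560) was at 22.1 and 20.2 RPKM, heme oxygenase 2 (LOC_Os03g27770) at 5.96 and 7.67 RPKM, and phytochromobilin synthase (LOC_Os01g72090) at 13.1 and 13.8 RPKM, each with an interval that included equal levels. The 5 heme loci together were 1.13-fold lower (1.09 to 1.17), close to the 1.10-fold of the chlorophyll synthesis loci.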

How the data were processed

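Leaf RNA of wild-type and of the mutant was sequenced as single-end reads on an Illumina HiSeq2500, with 1 library each. TopHat, Cufflinks and Cuffdiff are listed in the processing notes of the submitters. Versions, counter, genome build and annotation are not given in the sources used here. The authors deposited estimated counts for 36450 transcript models, in part fractions, and beside them the authors' RPKM. A second deposited table holds the authors' own fold changes and P-values and 4 per-library columns headed wlp1 and ZH11. None of it was used.

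Models were summed per locus, and no count model was fitted. Loci that reached 1 RPKM in either library were kept, and a pseudocount of 1 was added. Libraries summed to 9080323 and 9327778 counts. Reads carry no molecular identifiers, so intervals cover counting error only, and the floor for a count of 0 (3 counts) was not needed. Members and lists were chosen with earlier results of these data known. All 10 members were to be named, and of the other tetrapyrrole loci those that reached 5 RPKM in either library, as all 20 did. The siroheme ferrochelatase, the breakdown enzyme annotated as pheophorbide a oxygenase and proteins named only for the heme oxygenase fold were left out of the list. The alternatives were another pseudocount, filter, threshold, scaling (edgeR 4.0.16 TMM, median of ratios), model choice and list. The classes of 20 to 80 reads, at least 200 reads and an RPKM of at least 50 were chosen after the data were seen. The RefSeq gene table held 0 of the locus IDs, so no coordinates or sequences are given. Python 3.11.15, numpy 2.4.6, pandas 2.3.3 and scipy 1.17.1 were used. The intervals and the size rule were tried on simulated counts with counting error only, at loci of at least 5 RPKM in wild-type. That setting leaves out PORA and does not cover the spread between plants or divided reads.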

Additional observations from a re-analysis of the deposited data

How the results depend on the processing

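No paired analysis was possible because each genotype has 1 library, and for the same reason no replicate could be left out. The count of members past a difference of 1 (1, PORA) was 0 with a pseudocount of 5 or a filter at 5 RPKM, and 2 with a difference of at least 0.5. PORA is at 2.52 and 0.204 RPKM, so the larger pseudocount shrinks its difference by construction and the stricter filter removes it. The count over all loci, 522, was 1276 with a pseudocount of 0.1, 120 with a pseudocount of 5, 269 with a filter at 5 RPKM and 2761 with a difference of at least 0.5. The summed reads of the 10 loci, 0.912 of wild-type, were 0.946 without the cyclase. The median of the 10 kept its sign under the alternatives run, from -0.11 with whole-number counts to -0.05 without both POR loci (an alternative added after the data were seen). The median of the 20 other loci (-0.05) was 0.04 with whole-number counts, 0.03 with annotation words alone and 0.02 over the KEGG map, so its sign depends on the choice of loci. Median-of-ratios and TMM scaling shift the log2 ratio of reads of each locus by 0.00908 and -0.00329. For the single loci, 79 of 82 recomputed values stayed within the counting interval of the value reported. Many of the 82 could hardly differ, since the model choice repeats the value at loci with 1 model and both scalings shift little. The 3 values outside it were differences of PORA (-1.55). That difference was -3.10 with a pseudocount of 0.1, -0.53 with a pseudocount of 5 and -0.79 from 1 of its 3 models alone. The PORA fold of reads was recomputed only with the scalings and from 1 model. Its 3 models hold equal reads, so that fold could hardly move and was not checked by these alternatives.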

Other observations

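The porphyrin and chlorophyll map of KEGG holds 12 more loci that stand in neither list, and none reached a difference of 0.5 in either direction. The counting interval was below equal levels at 3 of the 12 and above at 0. Over all loci past the filter, 14.8% reached 0.5 and 31.5% had an interval that excluded equal levels. Among the 12, glutamate tRNA synthetase (LOC_Os02g02860), which charges the tRNA that glutamyl-tRNA reductase uses, was at 17.2 (wild-type) and 19.5 (*wlp2s*) RPKM, a ratio of 1.13 (0.974 to 1.32). Loci annotated as glutamyl/glutaminyl-tRNA synthetase had ratios below and above 1. LOC_Os10g22380 was at 24.7 and 21.8 RPKM, a ratio of 0.884 (0.784 to 0.996). LOC_Os01g16520 was at 4.92 and 5.92 RPKM, a ratio of 1.20 (0.931 to 1.56), and its interval included equal levels. The pheophorbide a oxygenase family locus LOC_Os03g05310 was at 76.3 and 64.4 RPKM, 1.18-fold lower (1.10 to 1.27), and the locus annotated as accelerated cell death 2 (LOC_Os10g25030), a chlorophyll breakdown enzyme in Arabidopsis, was at 68.3 and 56.3 RPKM, 1.21-fold lower (1.09 to 1.35). Chlorophyllase 2 (LOC_Os10g28370) was at 13.3 and 15.1 RPKM, with an interval that included equal levels. LOC_Os04g41260 bears the same annotation as the trunk locus LOC_Os01g18320 but was not in the trunk list. It was at 6.76 and 5.45 RPKM, a ratio of 0.790 (0.600 to 1.04). These 12 loci were looked at after the other results were known.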
